A study of Homo sapiens with 6 samples.

Results

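Kinesins are motor proteins that use ATP to walk along microtubules or to take microtubules apart. Some build the mitotic spindle, move chromosomes and separate the daughter cells, so dividing cells make them in a burst before mitosis. Others carry vesicles, mitochondria and protein complexes at all times, and a few work in the cilium. The members described here are the genes whose symbol matches KIF followed by a number, with or without a letter A, B or C, or KIFC followed by a number. There were 42 of them among 20388 gene symbols, and they were sorted by textbook role into 15 mitotic, 15 transport, 6 cilium and 6 other kinesins. These groups, and the lists of partner genes used below, were drawn up with earlier results of these data known.

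The cells were MHCC-97H, an established line from a human liver cancer, labelled wild type. 3 RNA-seq libraries came from cells treated for 24 h with GK921 at 2 µM, which inhibits transglutaminase 2 (TGM2), a protein-crosslinking enzyme. The other 3 came from cells kept for 24 h in the solvent DMSO. The series title links TGM2 to histone serotonylation and MYC, so the comparison asks how inhibitor-treated cells differed in their transcripts. Values were FPKM (fragments per unit of gene length and of library size), which can be compared between genes and are relative to each library's total. Nothing in the labels says whether libraries of 1 group were grown apart, so the p-values rest on a spread that may be only technical.

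Library sums lay between 821498 and 836182, and depth is unknown because no fragment totals came with the values. Of 11 markers of liver cancer cells, 3 reached a mean of 1 FPKM: KRT18 at 787 FPKM after GK921 and 740 in DMSO, KRT8 at 1100.4 after GK921 and 1633 in DMSO, and APOH at 17.2 after GK921 and 38.5 in DMSO. ALB, AFP and SERPINA1 stayed under 1 FPKM on average in both groups, and GPC3 was listed at 0 in all 6 libraries. Most listed hepatocyte products were therefore at or near 0 in these cells. Of 14 fibroblast, endothelial and leukocyte markers 6 reached that level. The fibroblast genes LUM (24.8 FPKM after GK921 and 42.2 in DMSO) and DCN (0.953 after GK921 and 8.34 in DMSO) were called lower, while COL1A1, COL1A2 and COL3A1 were near 0. Of the endothelial genes KDR was called higher (2.69 FPKM after GK921 and 1.62 in DMSO), PECAM1 was not called (3.94 after GK921 and 3.83 in DMSO), and CDH5 was listed at 0. Of the leukocyte genes CD68 stood at 99.7 FPKM after GK921 and 109 in DMSO and LYZ at 2.03 after GK921 and 0.303 in DMSO, neither called, and PTPRC averaged 0.413 after GK921 and 0.277 in DMSO. Their part in the kinesin results was not tested.

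Of the mitotic kinesins 11 fell by more than 2 log2 units, KIF22 fell less and KIF2A only slightly, while changes of transport kinesins lay between -0.17 and 1.06. Genes were tested with limma on log2(FPKM + 1) where their mean over the 6 libraries was at least 1 FPKM, and called at an adjusted p under 0.05 over all 11573 tested genes. All 13 tested mitotic kinesins were called lower (median log2 change -2.42). Of 12 tested transport kinesins, 6 were called higher, 1 lower and 5 neither way, with a median of 0.21. Over all tested genes 29.2% were called lower and 46.8% higher (75.9% either way), with a median of 0.16. The count of transport kinesins called higher is near that background, and the count called lower (1 of 12) is below it. The mitotic count is not near it. A call with a fall of at least 2 log2 units was made for 11 of the 13 mitotic kinesins and for 1.62% of all tested genes. In 13 of 13 mitotic kinesins every GK921 library lay below every DMSO library, which held for 30% of all tested genes. GK921 libraries lay wholly above in 8 of 12 transport kinesins and in 48% of all tested genes. In bulk RNA, fewer dividing cells and less of these RNAs per cell cannot be told apart.

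**Figure D1:**
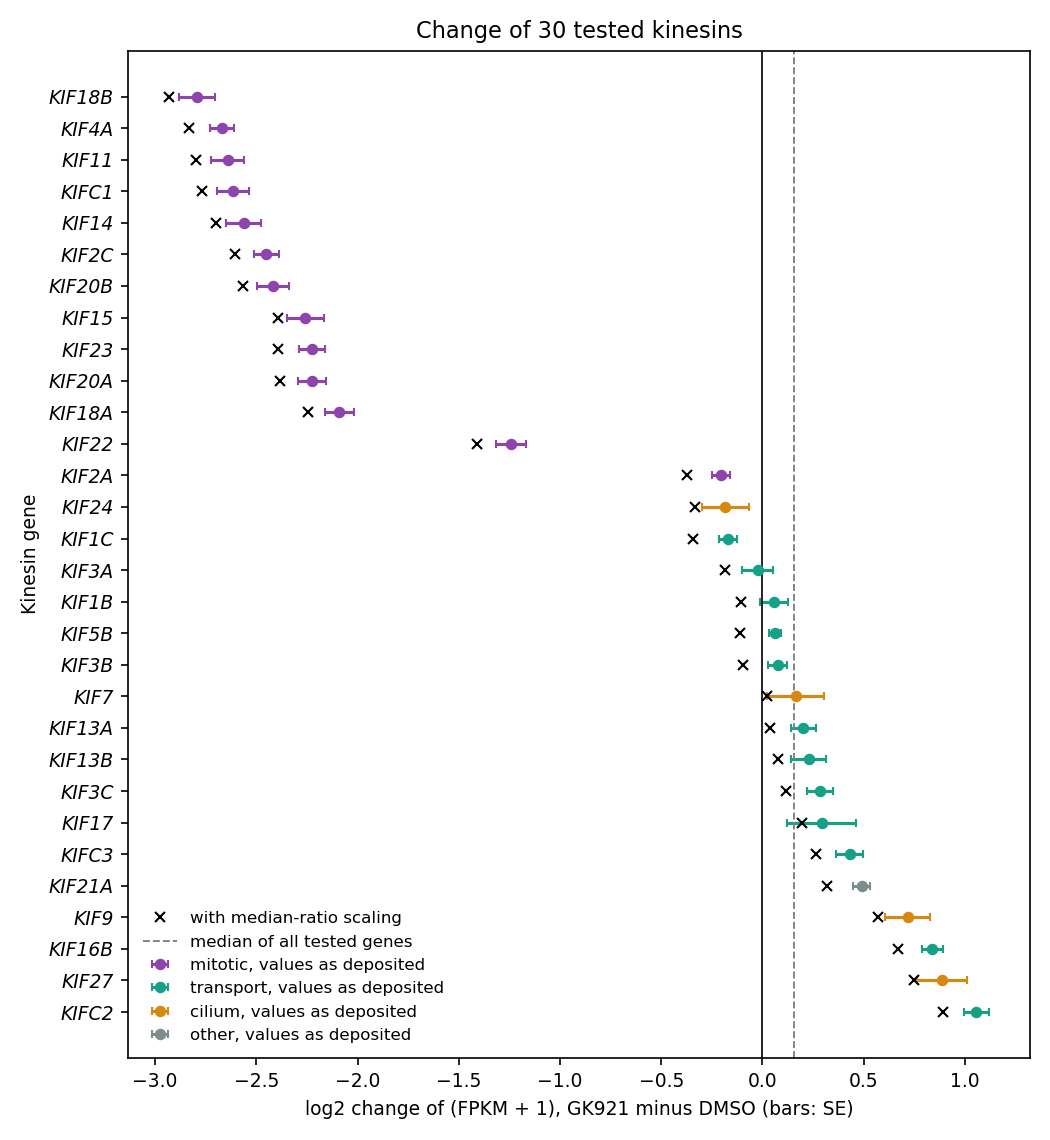
Log2 change of FPKM + 1 (GK921 minus DMSO, bars: SE of the limma fit) for the 30 tested kinesins, coloured by role, with crosses for the change after median-ratio scaling and a dashed line at the median of all tested genes (0.16). 12 mitotic kinesins lie between -2.79 and -1.24. KIF2A, at -0.20, lies just below the lowest cilium gene (KIF24, -0.18) and the lowest transport gene (KIF1C, -0.17).

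The median tested gene was 0.16 log2 units higher after GK921, which median-ratio scaling of the libraries removes (median -0.0013). All 13 mitotic calls held under that scaling. Of the transport kinesins 3 were then higher and 2 lower, and over all genes 36.5% were higher and 37.8% lower. The changes given next use the values without such scaling, and calls that scaling ends are named.

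Promoter sequences are shown first for KIF18B, KIF4A and KIF11, the mitotic kinesins with the largest falls in log2(FPKM + 1). By ratio of mean FPKM, KIF14 and KIFC1 fell further than KIF4A and KIF11. KIF16B, a transport kinesin that rose, though less than KIFC2, is set beside KIF18B, KIF4A and KIF11 for contrast. Each runs from 150 bases before to 30 after the RefSeq transcription start, 5′ to 3′ on the gene's strand, in GRCh38.p14. For KIF11, KIF18B and KIF16B the RefSeq start lies upstream of the GENCODE 29 gene start, so positions counted from it depend on the annotation. Capitals mark 3 kinds of match on either strand: the cell cycle genes homology region or CHR (TTTGAA, or TTCAAA for a match on the other strand), the NF-Y box (CCAAT or ATTGG) and an E2F-type site (TTGGCGC or GCGCCAA). The CHR is known as the element through which the DREAM and MuvB complexes silence and then activate genes of late division.
KIF18B, chr17:44947744-44947923, minus strand: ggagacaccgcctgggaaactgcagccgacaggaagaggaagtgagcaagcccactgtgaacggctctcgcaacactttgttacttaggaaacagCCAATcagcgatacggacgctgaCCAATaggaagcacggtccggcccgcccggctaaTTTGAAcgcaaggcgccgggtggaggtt
KIF4A, chrX:70289954-70290133, plus strand: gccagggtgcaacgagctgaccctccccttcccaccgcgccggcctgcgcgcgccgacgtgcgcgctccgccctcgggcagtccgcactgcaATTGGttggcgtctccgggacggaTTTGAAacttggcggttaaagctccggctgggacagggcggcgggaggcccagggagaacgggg
KIF11, chr10:92592980-92593159, plus strand: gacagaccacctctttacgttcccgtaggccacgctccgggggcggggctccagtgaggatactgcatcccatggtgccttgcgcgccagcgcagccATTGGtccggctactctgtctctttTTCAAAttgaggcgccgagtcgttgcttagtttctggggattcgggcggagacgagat
KIF16B, chr20:16573419-16573598, minus strand: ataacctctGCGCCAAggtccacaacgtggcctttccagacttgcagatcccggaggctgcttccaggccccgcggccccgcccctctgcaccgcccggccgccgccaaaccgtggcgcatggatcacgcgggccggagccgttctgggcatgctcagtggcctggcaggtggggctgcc

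In the 3 mitotic promoters an NF-Y box stood upstream of a CHR, and KIF16B held neither. KIF18B carried NF-Y boxes starting at -55 and -32 and a CHR at 3, counted from the start site, and an E2F-type site at 29 that runs past the printed bases. KIF4A carried an NF-Y box at -58 and a CHR at -34, and KIF11 had them at -53 and -28. The matches are letters in a window and were not tested as binding sites.

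Across the family, windows of 250 bases before to 50 after the start were searched for all tested mitotic kinesins. They were also searched for 9 of the 12 tested transport kinesins. KIF13B, KIFC2 and KIFC3, all called higher, had no window, so the transport counts leave out these risers. TTTGAA was found in the promoters of 9 of 13 mitotic genes, in 1 of 9 transport genes and in 15.2% of 35116 promoters in the RefSeq table. The 9 mitotic genes were KIF11, KIF14, KIF15, KIF18A, KIF18B, KIF20B, KIF23, KIF4A and KIFC1. All of them fell by more than 2 log2 units, as did KIF2C (-2.45) and KIF20A (-2.22), which lacked TTTGAA. Matches of the 9 mitotic genes began between -55 and 31, whereas that of the transport gene KIF5B began at -140. TTCGAA, a CHR variant, was found in KIF22 and in 1.45% of all promoters. In KIF22 the same site lies at -27 or at -244, depending on the listed start. CCAAT was found in 10 of 13 mitotic genes, in 3 of 9 transport genes and in 34.6% of all promoters. TTGGCGC was found in 3 mitotic genes and 1 transport gene and in 3.04% of all promoters, and TTCCCGC in no mitotic gene, 2 transport genes and 6.55% of all promoters. KIF2A and KIF2C had no match to any of these motifs, although KIF2C fell as far as genes that had them. Some genes have more than 1 listed start, and a gene was counted where any of its windows held the motif.

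**Figure D2:**
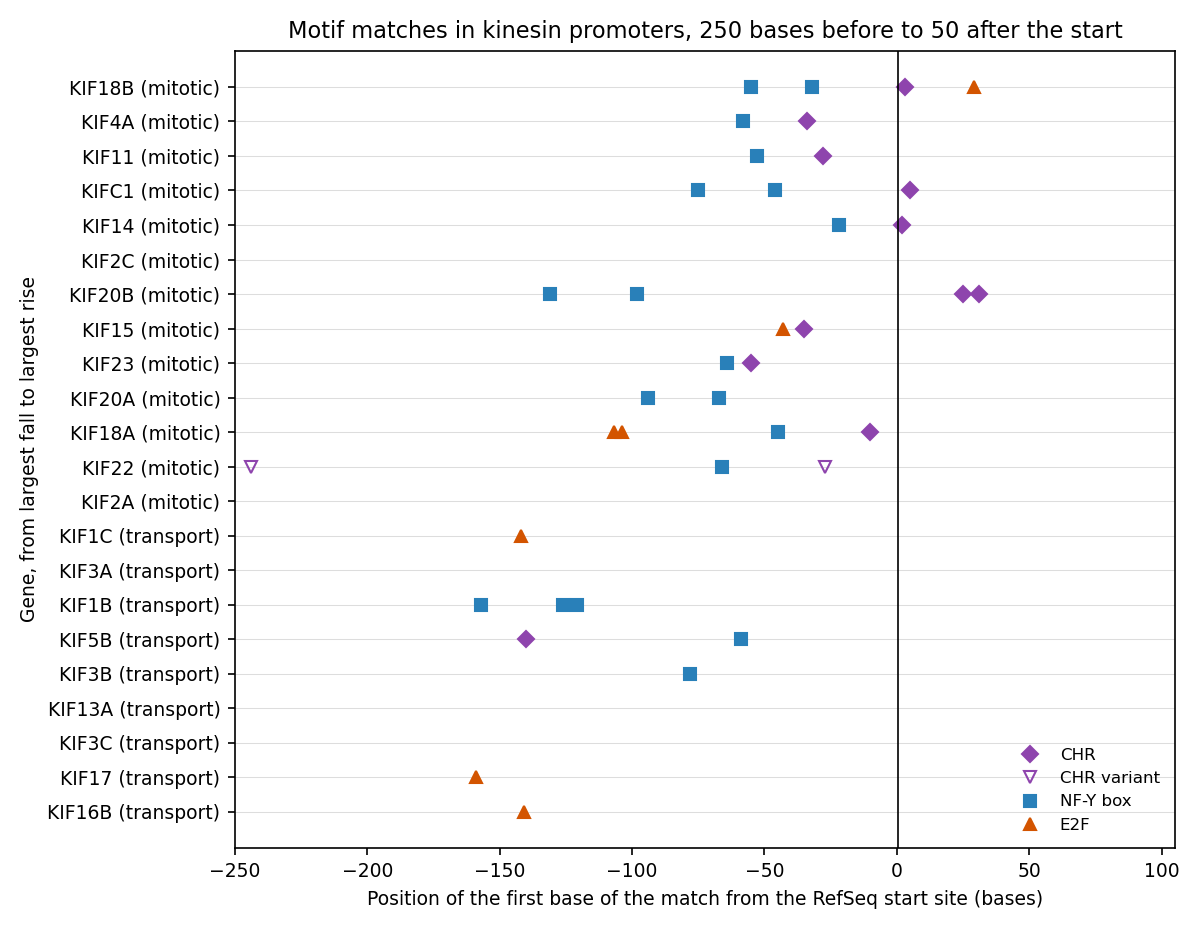
Position of motif matches (first base on the gene's strand, in bases from the RefSeq start site) in the promoters of 13 mitotic and 9 transport kinesins, ordered from the largest fall to the largest rise. TTTGAA matches of the mitotic genes lie between -55 and 31, and the only transport gene with one is KIF5B, at -140. The CHR variant marks of KIF22 (TTCGAA) at -27 and -244 are the same site, counted from different listed starts.

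Among motors that build the bipolar spindle, all 3 fell to between 13.5% and 14.5% of their level in DMSO. KIF11 (Eg5, chromosome 10, 92593286 to 92655395 in GENCODE 29, GRCh38) slides spindle poles apart and is the target of cancer drugs. It stood at 4.07, 5.08 and 4.72 FPKM after GK921, against 34.8, 34.3 and 32.9 FPKM in DMSO. The groups were far apart, and the mean was 7.35-fold lower (log2 change -2.64 ± 0.081 SE, limma adjusted p = 9.40e-09). KIF15, a motor that can stand in for KIF11 once the spindle has formed, had 1.77, 1.79 and 1.83 FPKM after GK921, against 13.0, 11.5 and 12.8 in DMSO. Its fall was 6.90-fold (-2.26 ± 0.090, limma adjusted p = 4.36e-08). KIFC1, a minus-end motor that focuses spindle poles and clusters extra centrosomes, had 3.80, 3.77 and 4.37 FPKM after GK921, against 30.8, 28.1 and 29.5 in DMSO. It fell 7.41-fold (-2.62 ± 0.077, limma adjusted p = 7.57e-09). The opposite-strand gene RPL12P1 covers 12.7% of KIFC1's exon bases.

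Motors that act on chromosomes fell by unequal amounts. KIF4A (chromosome X, 70290090 to 70420832) binds chromatin and sets the length of the central spindle with PRC1. It had 7.36, 7.26 and 6.73 FPKM after GK921, against 50.1, 51.3 and 50.4 in DMSO, where it was the most abundant mitotic kinesin in each library. The fall was 7.11-fold (-2.67 ± 0.057, limma adjusted p = 1.33e-09). KIF18A, which dampens chromosome movements at the metaphase plate, had 5.18, 4.96 and 5.71 FPKM after GK921, against 26.4, 26.0 and 24.7 in DMSO, a 4.87-fold fall (-2.09 ± 0.073). KIF22 (Kid), a DNA-binding motor that pushes chromosome arms outwards, had 11.1, 10.5 and 12.1 FPKM after GK921, against 26.6, 27.2 and 30.1 in DMSO. Its fall of 2.49-fold (-1.24 ± 0.074, limma adjusted p = 5.66e-07) left 40.2% of the level in DMSO, more than any tested mitotic kinesin but KIF2A. The opposite-strand gene AC009133.4 covers 13.0% of its exon bases. KIF4B, an intronless copy of KIF4A, was at or under 0.16 FPKM in every library. KIF4A shares 14.1% of the 50-base words of its transcript with KIF4B, so a small part of its reads could be assigned to either.

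**Figure D3:**
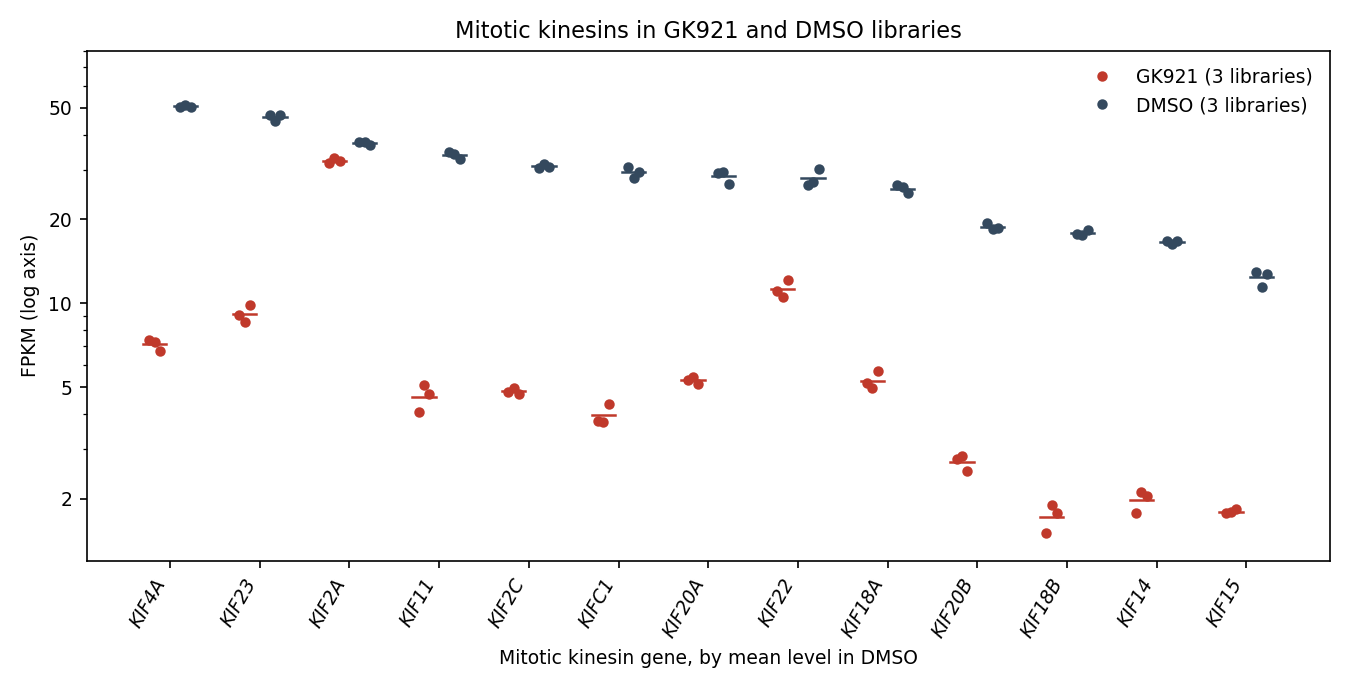
FPKM (log axis) of the 13 tested mitotic kinesins in each GK921 and DMSO library, ordered by mean level in DMSO; bars are group means of 3 libraries. The groups are separate for every gene, and KIF2A is the only one whose GK921 values stay above 30 FPKM.

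Microtubule depolymerases split within their own family. KIF18B, which shortens astral microtubules in mitosis, had the largest fall among the kinesins, to 1.5, 1.89 and 1.77 FPKM after GK921, against 17.6, 17.5 and 18.3 in DMSO. It was 10.4-fold lower (-2.79 ± 0.090, limma adjusted p = 1.20e-08) and ranked 49 of 11573 tested genes from the largest fall. KIF2C (MCAK), which corrects wrong attachments at kinetochores, had 4.81, 4.96 and 4.73 FPKM after GK921, against 30.4, 31.5 and 30.8 in DMSO, a 6.39-fold fall (-2.45 ± 0.062). Its relative KIF2A, which works at spindle poles and also prunes microtubules outside mitosis, had 31.7, 33.1 and 32.3 FPKM after GK921, against 37.9, 37.7 and 36.7 in DMSO. That fall was 1.16-fold (-0.20 ± 0.045, limma adjusted p = 0.00264), and its call was lost in a test against a 1.2-fold change. The ratio of KIF2C to KIF2A was 0.149 ± 0.0026 after GK921 and 0.825 ± 0.0188 in DMSO (SD, n = 3, exact two-sided permutation p = 0.1, the smallest that 3 against 3 allow, or 0.113 adjusted over 9 ratios). KIF2B was listed at 0 in all 6 libraries. KIF2A shares 8.97% of its exon bases with its same-strand neighbour IPO11, which was also called lower (11.9 ± 0.625 FPKM after GK921, 16.6 ± 0.552 in DMSO), and the part of this overlap in the change was not tested.

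The 4 cytokinesis motors each fell more than 5-fold. KIF14, which recruits citron kinase to the midbody, had 1.77, 2.12 and 2.04 FPKM after GK921, against 16.7, 16.3 and 16.7 in DMSO. It fell 8.38-fold (-2.56 ± 0.086, limma adjusted p = 1.51e-08). KIF20B had 2.76, 2.83 and 2.50 FPKM after GK921, against 19.3, 18.4 and 18.6 in DMSO, a 6.96-fold fall (-2.42 ± 0.079). KIF20A (MKLP2), which carries the Aurora B complex to the central spindle, had 5.31, 5.44 and 5.15 FPKM after GK921, against 29.1, 29.6 and 26.6 in DMSO, a 5.37-fold fall (-2.22 ± 0.069). KIF23 (MKLP1), the motor subunit of centralspindlin, had 9.04, 8.53 and 9.83 FPKM after GK921, against 47.0, 45.0 and 47.0 in DMSO, a 5.07-fold fall (-2.23 ± 0.064). No GK921 value of these 4 genes came near its DMSO values.

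The order of the mitotic kinesins by level differed between the groups. KIF4A, KIF23, KIF2A and KIF11 led in this order in all 3 DMSO libraries, and KIF2A, KIF22, KIF23 and KIF4A led in this order in all 3 GK921 libraries. The lowest 3 were KIF18B, KIF14 and KIF15 in every library. Neighbours in the order of falls were often within their errors: KIF4A, KIF11, KIFC1 and KIF14 (-2.67 to -2.56) lay within the sum of their SEs, as did KIF15, KIF23 and KIF20A (-2.26 to -2.22). KIF22 and KIF2A stood apart from the rest. Across the 12 mitotic kinesins other than KIF2A, Pearson's r between log2 level in DMSO and log2 change was 0.018, a description over genes that share the same 6 libraries.

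Summed over the family, kinesin transcripts were at 529, 523 and 529.6 FPKM after GK921, against 751, 750.0 and 747 in DMSO. Mitotic members summed to 90.3, 92.3 and 93.8 FPKM after GK921, against 380, 375 and 375 in DMSO, and transport members to 354, 343 and 351 after GK921, against 310.1, 314 and 311 in DMSO. These sums are of unscaled values, in which the median tested gene was 0.16 log2 units higher after GK921. The mitotic share of family FPKM was 17.5% ± 0.344 after GK921 and 50.2% ± 0.306 in DMSO (SD, n = 3). KIF2A alone made up 35.1% ± 0.723 of the mitotic sum after GK921 and 9.94% ± 0.137 in DMSO. Without KIF2A the mitotic share was 12.1% ± 0.288 after GK921 and 47.6% ± 0.319 in DMSO.

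**Figure D4:**
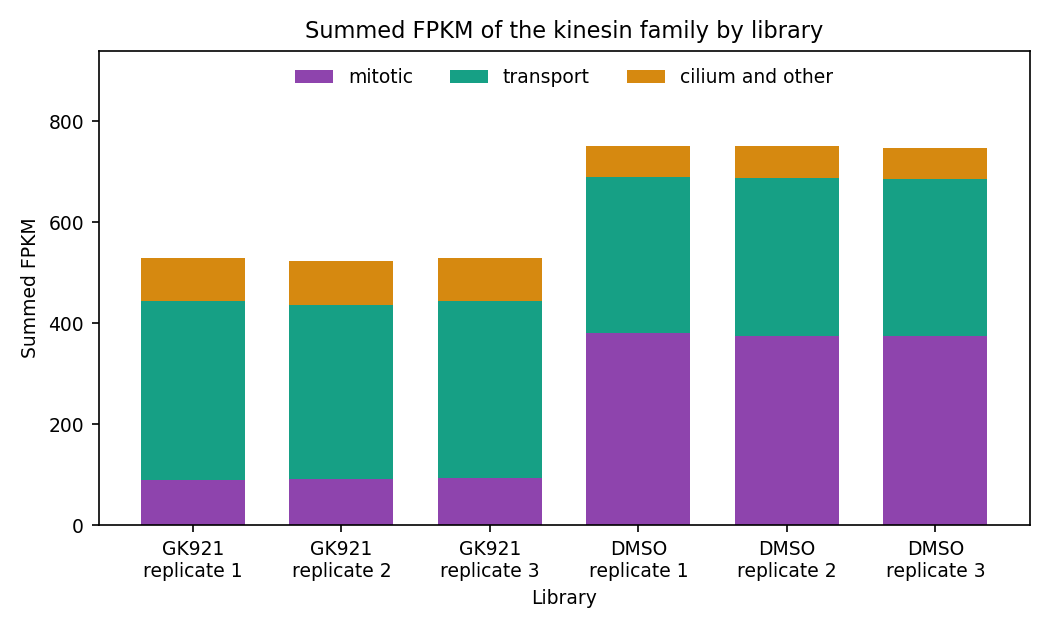
Summed FPKM of mitotic, transport, and cilium and other kinesins in each library, without median-ratio scaling. The mitotic part is 90.3 to 93.8 FPKM in GK921 libraries and 375 to 380 in DMSO libraries, while the transport part is 343 to 354 in GK921 libraries and 310.1 to 314 in DMSO libraries.

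No transport kinesin of the conventional kind was called. KIF5B, the ubiquitous heavy chain of conventional kinesin, was the most abundant member of the family in every library, at 110.4, 111 and 111 FPKM after GK921, against 106, 106 and 107 in DMSO. Its GK921 values all lay above its DMSO values, but by 1.04-fold, and it was not called (0.06 ± 0.030, limma adjusted p = 0.0900). With median-ratio scaling it was called lower (-0.11, limma adjusted p = 0.00847). The neuronal heavy chain KIF5A did not pass 0.06 FPKM in any library, and KIF5C was listed at 0.

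Of the heterotrimeric kinesin that carries cargo along cilia and endosomes, 2 motor subunits were not called and 1 rose. KIF3A had 11.9, 11.3 and 11.8 FPKM after GK921, against 11.5, 11.2 and 13.1 in DMSO, with overlapping groups (-0.02 ± 0.077, limma adjusted p = 0.785). With quantile normalization KIF3A was called lower (-0.20, limma adjusted p = 0.0348). KIF3B had 35.1, 33.7 and 35.7 FPKM after GK921, against 32.2, 33.2 and 33.6 in DMSO, with the GK921 values above the DMSO values but no call (0.07 ± 0.047, limma adjusted p = 0.177). KIF3C, the alternative partner of KIF3A, had 19.4, 18.5 and 17.2 FPKM after GK921, against 14.9, 15.0 and 14.9 in DMSO. It rose 1.23-fold (0.28 ± 0.063, limma adjusted p = 0.00288), a call lost with median-ratio scaling (0.12, limma adjusted p = 0.125) and quantile normalization (0.14, 0.0804). KIF17, a homodimer of the same class, had 1.07, 1.30 and 1.97 FPKM after GK921, against 1.09, 0.87 and 0.97 in DMSO, and was not called (limma adjusted p = 0.144).

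**Figure D5:**
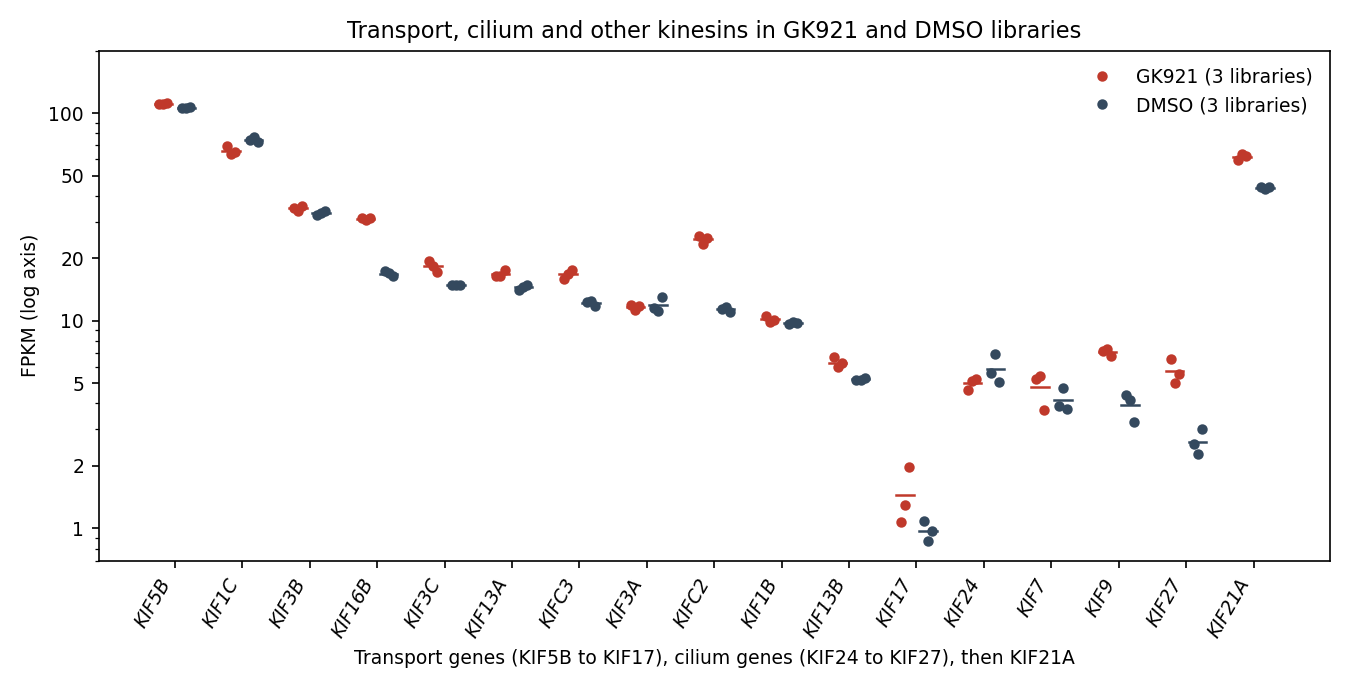
FPKM (log axis) of the tested transport, cilium and other kinesins in each GK921 and DMSO library; bars are group means of 3 libraries. Every GK921 value lies above every DMSO value for KIF5B, KIF3B, KIF3C, KIF13A, KIF13B, KIF16B, KIFC2, KIFC3, KIF9, KIF27 and KIF21A, and below for KIF1C.

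Monomeric and dimeric vesicle motors included a clear rise and the only fall called among transport kinesins. KIF16B, which moves early endosomes, had 31.3, 30.6 and 31.1 FPKM after GK921, against 17.4, 17.0 and 16.4 in DMSO. It rose 1.83-fold (0.84 ± 0.052, limma adjusted p = 7.12e-07) and stayed called with median-ratio scaling (0.67). KIF1C, which carries secretory vesicles and integrins, had 69.5, 63.8 and 65.1 FPKM after GK921, against 74.5, 76.7 and 72.3 in DMSO. It fell 1.13-fold (-0.17 ± 0.045, limma adjusted p = 0.00758), a call lost in the test against a 1.2-fold change. KIF13A, a motor of recycling endosomes, had 16.4, 16.5 and 17.6 FPKM after GK921, against 14.1, 14.6 and 14.9 in DMSO (0.20 ± 0.061, limma adjusted p = 0.0140). The call was lost with median-ratio scaling (0.04) and without the third GK921 library (limma adjusted p = 0.0516). KIF13B had 6.66, 5.96 and 6.26 FPKM after GK921, against 5.20, 5.16 and 5.31 in DMSO (0.23 ± 0.085, limma adjusted p = 0.0350). That call was lost with median-ratio scaling (0.08) and in each fit that left out a library other than the second of GK921 (limma adjusted p = 0.0634 to 0.102). KIF1B, which carries synaptic vesicle precursors and mitochondria, had 10.6, 9.87 and 10.1 FPKM after GK921, against 9.61, 9.89 and 9.74 in DMSO, and was not called (limma adjusted p = 0.477). KIF1A, its neuronal relative, did not pass 0.03 FPKM.

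The minus-end transport motors rose. KIFC2 had 25.7, 23.4 and 25.1 FPKM after GK921, against 11.4, 11.6 and 11.1 in DMSO, the largest rise in the family on the log2 scale (2.18-fold, 1.06 ± 0.061, limma adjusted p = 4.93e-07). It shares 21.1% of its 50-base words with the opposite-strand gene FOXH1, whose level was at most 0.29 FPKM in any library. KIFC3, which acts at adherens junctions and on the Golgi, had 15.99, 16.9 and 17.6 FPKM after GK921, against 12.4, 12.5 and 11.8 in DMSO (1.38-fold, 0.43 ± 0.065, limma adjusted p = 0.000273). Both stayed called with median-ratio scaling, at 0.89 and 0.27.

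Among cilium kinesins, 2 of 4 tested genes rose and 2 were not called, a share near the 46.8% of all tested genes called higher. KIF27 had 6.53, 5.04 and 5.54 FPKM after GK921, against 2.56, 2.29 and 3.01 in DMSO (2.18-fold, 0.89 ± 0.125, limma adjusted p = 0.000167). It shares 35.3% of its 50-base words with other annotated genes, so its level is uncertain. KIF9, a motor of motile cilia, had 7.14, 7.35 and 6.78 FPKM after GK921, against 4.41, 4.15 and 3.26 in DMSO (1.80-fold, 0.72 ± 0.111, limma adjusted p = 0.000306). The antisense gene KIF9-AS1 overlaps 14.9% of its exon bases, and without a stated strand setting their reads cannot be told apart. KIF7, a regulator of Hedgehog signalling at the cilium tip, had 5.23, 5.42 and 3.73 FPKM after GK921, against 3.90, 4.73 and 3.78 in DMSO, with overlapping groups (limma adjusted p = 0.311). The opposite-strand gene TICRR, which covers 11.8% of KIF7's exon bases, was called lower (0.970 ± 0.0557 FPKM after GK921, 7.64 ± 0.295 in DMSO), and its part in the KIF7 values was not tested. KIF24, which depolymerises microtubules at the mother centriole, had 4.65, 5.14 and 5.25 FPKM after GK921, against 5.60, 6.90 and 5.08 in DMSO (-0.18 ± 0.116, limma adjusted p = 0.179), and with median-ratio scaling it was called lower (-0.33, limma adjusted p = 0.0280). KIF6 and KIF19 were listed at 0 throughout.

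KIF21A, which holds back microtubule growth at the cell cortex, was the only tested member of the remaining 6. It had 59.6, 63.8 and 62.0 FPKM after GK921, against 43.9, 43.1 and 44.2 in DMSO (1.41-fold, 0.49 ± 0.042, limma adjusted p = 6.72e-06), and stayed called with median-ratio scaling (0.32). KIF21B and KIF12 averaged under 1 FPKM, with KIF21B at 0.56, 1.34 and 0.82 FPKM after GK921, against 0.38, 0.38 and 0.45 in DMSO. KIF25, KIF26A and KIF26B did not pass 0.13 FPKM in any library. In all, 12 of the 42 kinesins were too low to be tested.

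Partners of the mitotic kinesins moved the same way as the motors. Of 21 tested genes on a list of such partners, 20 were called lower and 0 higher (median log2 change -1.96), against 29.2% lower and 46.8% higher over all tested genes. AURKB, the kinase of the chromosomal passenger complex, averaged 4.01 ± 0.376 FPKM after GK921 and 45.4 ± 6.75 in DMSO (-3.20). PLK1, a kinase that loads several of these motors, averaged 10.3 ± 0.646 FPKM after GK921 and 72.8 ± 2.43 in DMSO (-2.70). CDCA8, another passenger subunit, averaged 6.66 ± 1.19 after GK921 and 46.4 ± 1.54 in DMSO (-2.64). CENPE, a kinetochore kinesin whose symbol is outside the KIF series, averaged 3.63 ± 0.250 FPKM after GK921 and 15.7 ± 0.806 in DMSO, a 4.33-fold fall (-1.85 ± 0.083, limma adjusted p = 8.60e-08). NUMA1, which tethers spindle poles, was the exception at 23.0 ± 0.583 FPKM after GK921 and 24.7 ± 1.23 in DMSO (limma adjusted p = 0.160), and with median-ratio scaling it too was called lower (-0.26, limma adjusted p = 0.00276), as were all 21. NUSAP1 was listed at or near 0 in every library and was not tested.

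Ratios of a motor to its partner were lower after GK921 in 3 pairs. The ratio of KIF23 to RACGAP1, the other subunit of centralspindlin, was 0.489, 0.410 and 0.487 after GK921, against 0.582, 0.554 and 0.611 in DMSO. The ratio of KIF4A to PRC1 was 0.553 ± 0.0209 after GK921 and 0.655 ± 0.0247 in DMSO, and that of KIF15 to its loading factor TPX2 was 0.0460 ± 0.00107 after GK921 and 0.0740 ± 0.00373 in DMSO. In each of these 3 pairs the groups did not overlap (exact two-sided permutation p = 0.1, or 0.113 with Benjamini-Hochberg adjustment over 9 ratios chosen after values had been seen). The smallest p this design allows is 0.1, so none can pass 0.05.

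Of 21 tested light chain and cargo adaptor genes of the transport kinesins, 16 were called higher and 3 lower (median log2 change 0.41), against 46.8% higher and 29.2% lower over all tested genes. After median-ratio scaling 14 of them were higher and 4 lower, against 36.5% and 37.8% over all tested genes. The light chains KLC1, KLC2 and KLC4, which link KIF5 heavy chains to cargo, rose 1.36-fold, 1.33-fold and 2.05-fold. The light chain KLC3 was not called (-0.15 ± 0.127, limma adjusted p = 0.296). The summed light chains to KIF5B ratio was 0.714, 0.665 and 0.660 after GK921, against 0.524, 0.534 and 0.532 in DMSO (exact two-sided permutation p = 0.1). BORCS6, a subunit of the complex that couples lysosomes to kinesins, averaged 19.95 ± 1.22 FPKM after GK921 and 6.64 ± 1.12 in DMSO (1.47 on the log2 scale). TRAK2, an adaptor that ties mitochondria to motors, rose 2.04-fold (0.98). TRAK1, on the same list, rose 1.11-fold (0.15), a call lost with median-ratio scaling (-0.019, limma adjusted p = 0.746). KIFAP3, the non-motor subunit that completes the KIF3A and KIF3B complex, rose 1.24-fold. Falls included those of KIFBP (1.31-fold), which blocks several kinesins from microtubules, and of the scaffold DLG1 (1.14-fold). RHOT2, a mitochondrial anchor, was the most abundant gene of this list without a call (0.03, limma adjusted p = 0.576), and with median-ratio scaling it was called lower (-0.14, limma adjusted p = 0.0376).

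Of 26 tested genes of dynein, which walks the opposite way, and its partner dynactin, 11 were called higher and 6 lower (median log2 change 0.03), near the 46.8% higher and 29.2% lower over all tested genes. After median-ratio scaling 8 of them were higher and 14 lower, against 36.5% and 37.8% over all tested genes. DYNC2LI1, a chain of the ciliary dynein, averaged 25.5 ± 0.623 FPKM after GK921 and 10.5 ± 1.72 in DMSO (1.21), and the dynein regulator NDEL1 averaged 65.9 ± 1.98 after GK921 and 34.3 ± 1.59 in DMSO (0.92). The light chain DYNLT3 rose 1.52-fold. The heavy chain DYNC1H1 fell 1.46-fold, with 54.2 ± 1.31 FPKM after GK921 and 78.9 ± 1.24 in DMSO (-0.53), and the dynactin subunits DCTN1 and CAPZA2 fell 1.47-fold and 1.22-fold. DYNLT1 was at 169 ± 15.5 FPKM after GK921 and 174 ± 9.59 in DMSO and was not called (limma adjusted p = 0.551), but with median-ratio scaling it was called lower (-0.22, limma adjusted p = 0.0130).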

How the data were processed

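The deposited table held 1 FPKM value per gene symbol and library with 2 decimals. The unit rests on the name the authors gave the table, since its headers give only group and replicate. HISAT2, featureCounts, edgeR, FastQC 0.11.5 and the build hg38 appear, without roles, in the submitters' processing notes. The annotation, the strand setting and the handling of reads with several matches were not given in the sources used here. FPKM shows no change of total RNA per cell. Groups and replicate numbers came from sample titles. The deposited values, as log2(FPKM + 1), were fitted with limma (3.58.1, R 4.3.3) with treatment as the only term and an intensity trend. Benjamini-Hochberg adjustment ran over all genes averaging 1 FPKM or more. Log2 changes understate changes of low genes; printed folds are ratios of mean FPKM. The fit was tested on simulated data. Sums and ratios were described or compared by exact permutation tests. Members, roles and lists were chosen with earlier results of these data known. The naming rule took every tested mitotic member, the largest called changes and uncalled members elsewhere, and up to 3 called genes per list and direction. Positions and 50-base words came from GENCODE 29, promoters from RefSeq (GRCh38.p14), which listed 34 of the 42 kinesins. Protein sequences were not used here. Some genes that the naming rule takes are not reported here.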

Additional observations from a re-analysis of the deposited data

How the results depend on the processing

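The tested alternatives were other pseudocounts, filters and scalings, no trend, a replicate block, a test against a 1.2-fold change, and leaving out each library. The mitotic kinesins called lower numbered 13 under each of these except the 1.2-fold test, which called 12. The 1.2-fold test called 3595 genes higher and 2135 lower, with 3 transport kinesins higher and 0 lower, 0 adaptors lower, and 7 dynein genes higher and 2 lower. Median-ratio scaling and quantile normalization each called 3 transport kinesins higher and 2 lower, and 1 cilium kinesin (KIF24) lower. Beside KIF1C the lower call was KIF5B under the first and KIF3A under the second, which left KIF5B at 0.041. Leaving out a library gave 5151 to 5228 genes higher and 3209 to 3279 lower, 4 to 6 transport kinesins higher and 1 lower. Without KIF2A the mitotic share was 12.1% after GK921 and 47.6% in DMSO. Some uncalled or barely changed kinesins reversed sign. KIF1B was at -0.10 with median-ratio scaling, -0.046 with upper-quartile scaling and -0.13 with quantile normalization, KIF3B at -0.096, -0.034 and -0.034, and KIF5B at -0.11 with median-ratio and -0.049 with upper-quartile scaling. KIF7 was at -0.064 with quantile normalization. Leaving out a library moved KIF3A between -0.064 and 0.038, the positive value being without the third DMSO library. The cause was not tested. Same-numbered libraries did not deviate together (r = 0.031, 0.047 and -0.0021). With a replicate block 5351 genes were higher and 3355 lower, with 13 mitotic kinesins lower and 5 transport kinesins higher, KIF13B no longer being called (limma adjusted p = 0.0623). Since fragment totals are unknown, the precision of members under 1 FPKM could not be set.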
